A study of Mus musculus with 2 samples.

Results

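The genes described are 10 that mark megakaryocytes and the platelets they shed: Gp1ba, Gp1bb, Gp9 and Gp5, Itga2b and Itgb3, Vwf, Pf4 and Ppbp, and Rgs18. They were chosen by symbol, and all 10 were found among the 43346 mouse gene entries of both libraries. Polyadenylated RNA was sequenced from both ends of its fragments in G1E-ER4, an immortalized male mouse cell line. G1E cells were made without a working Gata1 gene. The ER4 subline holds a fusion of GATA1 and the hormone-binding domain of the estrogen receptor, which becomes active when estradiol is added, and the cells then begin to mature as red cell precursors. Both libraries come from cells given 10 nM 17beta-estradiol for 24 h. They are 1 group, labelled biological replicates 1 and 2 under 1 shared biosample record, and stand for 1 line only. No untreated cells were analysed here, so the values below are levels in induced cells and say nothing of whether estradiol raised or lowered a gene.

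Megakaryocytes and red cells arise from a shared progenitor, and GATA1 with its partner FOG1 is needed in both lineages. In megakaryocytes GATA1 works beside ETS factors such as FLI1, whose recognition letters lie near those of GATA1 in many platelet gene promoters. Platelets attach to von Willebrand factor through the GPIb-IX-V receptor and to fibrinogen through the integrin made of the subunits encoded by Itga2b and Itgb3. Their alpha granules hold von Willebrand factor and the chemokines PF4 and PPBP.

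Replicate 1 was sequenced 5.09-fold deeper than replicate 2, with totals of 70451042 and 13841487 estimated counts. With 3 counts taken as the limit of what a 0 can hide, a gene without counts may lie at up to 0.0426 counts-per-million (CPM) in the deeper library and 0.217 CPM in the other. Levels are transcripts-per-million (TPM), which divide a gene's counts by its effective length, and are given per library and for some genes as mean ± SD. Counting error is all that the exact intervals and the limits include, while the authors' TPM intervals are quoted as deposited. The labels mention no molecular identifiers, and the spread between the libraries may be technical. The smallest p that an exact sign-flip test over 2 libraries can give is 0.5, so the levels are a description. The labelled cell type was checked with 16 erythroid markers. Of these 15 reached 1 TPM in both libraries, and their summed level was 232576 TPM in replicate 1 and 87537 TPM in replicate 2. The 3 highest were Hbb-bs, a beta globin gene (122878 and 45332 TPM), Hba-a1 (70454 and 35419 TPM) and Hba-a2 (33766 and 2191 TPM). Hba-a1 and Hba-a2 are alpha globin genes whose near-identical copies can exchange counts. Transcripts classed as coding gave 116 and 424 TPM of Hbb-bs, a small part of its level. They gave 3241 and 35419 TPM of Hba-a1, and 33764 and 1992 TPM of Hba-a2.

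The letters in front of 4 of the genes are shown because the 4 span the range of levels described below, from the highest of the 10 (Gp1ba) through Gp9 and Gp5 to a gene with no counts (Pf4). Each run is the 250 bases before the RefSeq start, 5′ to 3′ on the strand of the gene, build GRCm38.p6. Capitals mark GATA and ETS letters on either strand, and a match on the other strand appears as its reverse complement. The GATA letters searched were AGATAA, the form AGATAG, the form TGATAA and also the form TGATAG. The ETS letters searched were AGGAAG and also the form CGGAAG.
Gp1ba (chr11:70638872-70639121, plus strand): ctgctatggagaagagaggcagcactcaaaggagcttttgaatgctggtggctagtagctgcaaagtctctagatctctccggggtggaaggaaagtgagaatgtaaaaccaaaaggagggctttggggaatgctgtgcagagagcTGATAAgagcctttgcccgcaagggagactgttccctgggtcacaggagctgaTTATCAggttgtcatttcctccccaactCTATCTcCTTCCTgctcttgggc
Gp5 (chr16:30310782-30311031, minus strand): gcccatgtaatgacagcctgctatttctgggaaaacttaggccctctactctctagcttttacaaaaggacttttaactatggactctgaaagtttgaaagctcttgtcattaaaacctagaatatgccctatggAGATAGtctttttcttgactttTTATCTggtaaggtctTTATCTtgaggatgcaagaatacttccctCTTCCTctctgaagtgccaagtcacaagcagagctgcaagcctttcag
Gp9 (chr6:87777820-87778069, plus strand): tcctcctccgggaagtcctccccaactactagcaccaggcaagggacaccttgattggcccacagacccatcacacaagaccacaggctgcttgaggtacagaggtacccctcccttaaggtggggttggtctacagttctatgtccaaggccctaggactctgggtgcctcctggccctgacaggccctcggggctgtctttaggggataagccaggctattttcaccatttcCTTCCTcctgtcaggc
Pf4 (chr5:90772185-90772434, plus strand): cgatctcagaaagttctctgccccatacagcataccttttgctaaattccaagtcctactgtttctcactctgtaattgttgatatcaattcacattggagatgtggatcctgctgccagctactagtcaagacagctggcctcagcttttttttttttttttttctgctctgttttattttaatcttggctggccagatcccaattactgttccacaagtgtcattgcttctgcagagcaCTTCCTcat

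A RefSeq window was found for 7 of the 10 genes. GATA letters stood in 3 of the 7, with 3 matches in Gp1ba, 3 in Gp5 and 1 in Gp1bb, against 26.5% of all 32851 windows of this length. ETS letters stood in 6 of the 7, all but Ppbp, against 39.2% of all windows. In Gp1ba the nearest GATA match ends 18 bases before the start and the ETS match follows after 1 base, between 16 and 11 bases before the start. In Gp5 the 3 GATA matches lie between 115 and 72 bases before the start and the ETS match between 48 and 43. In Gp9 and Pf4 an ETS match lies 16 to 11 and 9 to 4 bases before the start, with no GATA letters of this form in the window. GATA and ETS matches shared no bases in any of the 7 windows. These are matches of letters, and binding was not measured in these libraries.

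Of the 10 genes, 3 reached 1 TPM in both libraries: Gp1ba, Itga2b and Gp9. The same level was reached by 17.2% of all mouse gene entries and by 33.1% of protein-coding genes, so the share among the 10 was near that of protein-coding genes. In replicate 2 alone 5 genes reached it, with Gp1bb and Gp5 added (18.2% of all entries), and in replicate 1 alone the same 3 did (19.7%). Another 3 genes, Pf4, Ppbp and Rgs18, had 0 counts in both libraries, as did 64.2% of all entries and 41.3% of protein-coding genes. The counts of all 10 genes summed to 3356 in replicate 1 and to 997 in replicate 2, or 0.00476% and 0.00720% of each library. Gp1ba alone held 82.8% and 83.9% of those counts. The order by mean TPM was Gp1ba, Itga2b, Gp9, Gp1bb, Gp5, Itgb3 and Vwf, and then the 3 genes at 0. From Itga2b to Vwf the values of the 2 libraries overlapped between neighbours in this order, and the only gap was that between Gp1ba and Itga2b.

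**Figure D1:**
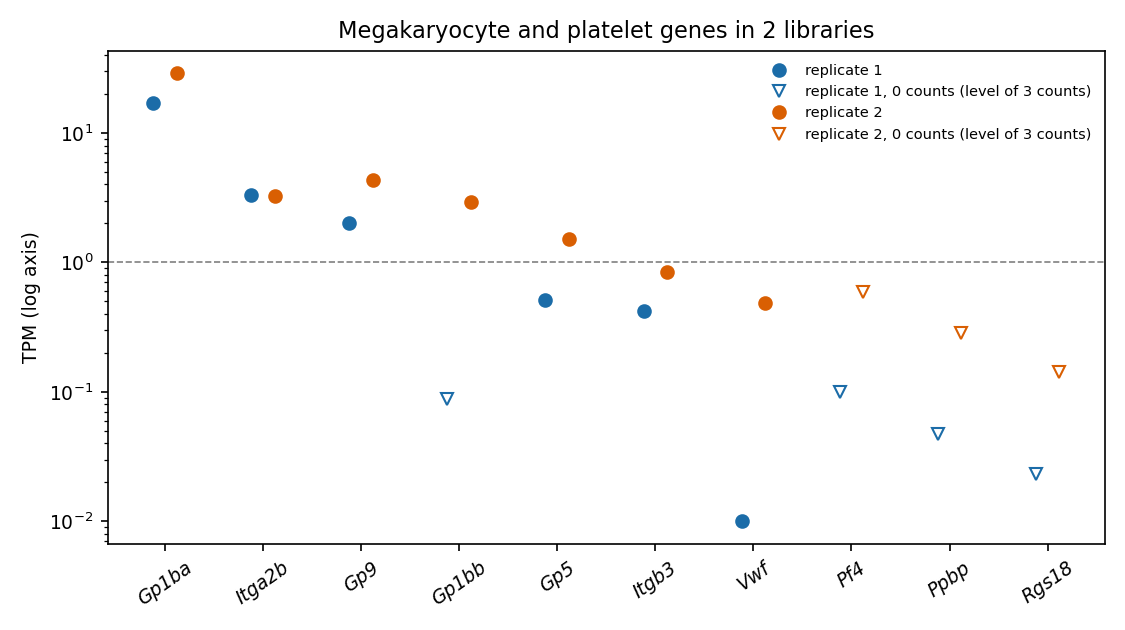
Level of each gene in TPM on a log axis, with replicate 1 in blue and replicate 2 in orange. Filled points are measured levels, open triangles mark a library with 0 counts at the level that 3 counts would give, and the dashed line is 1 TPM. Gp1ba stands at 17.04 and 28.98 TPM, above every other gene of the set in both libraries, and Pf4, Ppbp and Rgs18 have triangles alone.

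Gp1ba (chromosome 11, 70639122 to 70642036, plus strand, GRCm38) encodes the alpha chain of glycoprotein Ib, the part of the receptor that binds von Willebrand factor. It had 2780 counts in replicate 1 and 836 in replicate 2. Its level was 17.04 TPM (the authors' interval, whose level is not stated, 16.2 to 17.5) and 28.98 TPM (25.7 to 29.6), or 23.01 ± 8.44 TPM (SD, n = 2). It ranked 3954th and 2696th among all entries, well below the erythroid markers, whose median was 423 TPM. The gene nearest to it, Slc25a11, a mitochondrial carrier 2160 bases away on the opposite strand, stood at 130 and 38.3 TPM, lower in replicate 2, where Gp1ba was higher.

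Gp9 (chromosome 6, 87778072 to 87779768, plus strand) encodes the small glycoprotein IX that the complex needs to reach the cell surface. It had 92 and 33 counts and a level of 2.02 TPM (the authors' interval 1.63 to 2.44) and 4.33 TPM (2.85 to 5.64), or 3.17 ± 1.63 TPM. Gp1ba was 8.44-fold higher than Gp9 per length in replicate 1 (exact 95% interval 6.84 to 10.5) and 6.69-fold in replicate 2 (4.73 to 9.78). These intervals overlap, and a difference in the ratio of the 2 genes between the libraries was not tested. Rab43, a trafficking GTPase gene 9085 bases from Gp9 on the other strand, stood at 54.6 and 97.1 TPM, and Gm43904, a non-coding RNA gene 592 bases before Gp9 on its own strand, has no row in these tables. Gp5 (chromosome 16, 30307685 to 30310779, minus strand) encodes glycoprotein V, the subunit that thrombin cleaves from the platelet surface. It had 72 and 35 counts, at 0.51 and 1.52 TPM. Gp1ba was 33.4-fold higher than Gp5 in replicate 1 (26.4 to 42.8) and 19.1-fold in replicate 2 (13.6 to 27.7). Atp13a3, a transport ATPase gene 1644 bases from Gp5 on the same strand, stood at 39.7 and 234 TPM, far above Gp5 in both libraries and also higher in replicate 2. Whether reads from it reached the Gp5 entry was not tested.

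Gp1bb (chromosome 16, 18620317 to 18622403, minus strand) encodes the beta chain of glycoprotein Ib and had counts in 1 library only. The deeper library, replicate 1, had 0 counts, while replicate 2 had 17 counts and 2.95 TPM (the authors' interval 1.62 to 4.28). At the rate of replicate 2, 114 counts would stand in replicate 1. The 0 of replicate 1 allows up to 0.0882 TPM on the shorter of the gene's annotated transcripts. Against a floor of 3 counts in replicate 1 the scaled rate was at least 38.0-fold higher in replicate 2 with the 17 counts taken as exact, and the exact 95% interval, which includes the counting error of both libraries, begins at 27.7-fold. Gp1ba was 9.82-fold higher than Gp1bb in replicate 2 (6.10 to 16.9) and at least 193-fold higher in replicate 1. Gp1bb is overlapped on its own strand by Sept5, a septin gene with 0 counts in both libraries, and by Gm49601, which has no row in these tables. All 17 counts were assigned to Gp1bb-201, which is 645 bases long in the tables and 2085 bases long in the later GENCODE M21 annotation, while Gp1bb-202 is 1847 bases long in the tables and 1086 in M21. The part of the overlap and of the annotation in this value was not tested. Of the 4 genes of the receptor, Gp1ba, Gp9 and Gp5 thus had counts in both libraries and Gp1bb in replicate 2 alone.

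Itga2b (chromosome 11, 102453297 to 102470122, minus strand) encodes the alpha subunit of the platelet fibrinogen receptor, also known as CD41, which is present on early blood progenitors as well. Its TPM was nearly equal in the libraries, 3.32 in replicate 1 (the authors' interval 3.03 to 4.40) and 3.27 in replicate 2 (3.07 to 7.23). The authors' posterior means were less alike, at 3.72 and 5.05 TPM. The counts beneath were also unequal: 251 in replicate 1 and 22 in replicate 2, or 3.56 and 1.59 CPM. Most of the difference between CPM and TPM lies in the effective length, which was 1097 bases in replicate 1 and 602 in replicate 2. The rest lies in the total to which TPM is scaled in each library. Effective length is averaged over a gene's transcripts by their level, and the counts were placed on different ones. Itga2b has 10 annotated transcripts and 1 of them is coding. The coding Itga2b-201 took 138.08 counts and 0.61 TPM in replicate 1 but 1.47 counts and 0.04 TPM in replicate 2. In both libraries the leading transcript by TPM was Itga2b-207, a processed transcript of 623 bases with no coding call. It holds 3 exons at the 3′ end of the gene, from 13932 to 16818 bases after the gene's 5′ end. It made up 47.58% of the gene's TPM in replicate 1 and 77.05% in replicate 2, with 51.28 and 13.88 counts. Itga2b-210, with 8 exons from 11557 to 14225 bases, the last of which overlaps Itga2b-207, took 1.17 and 6.65 counts. Coding transcripts thus accounted for 18.4% and 1.22% of the gene's TPM, in which a count on a short transcript weighs more. By counts Itga2b-201 took 138.08 of 251 in replicate 1, more than any other transcript, and 1.47 of only 22 in replicate 2. The exons of Itga2b-207 from 14442 to 14558 and from 16605 to 16818 bases lie within exons of Itga2b-201. How reads there were split between the transcripts was not tested. The neighbours on the same strand were Fam171a2, with 1 and 0 counts, and Gpatch8, at 15.7 and 9.52 TPM. The small RNA gene Gm23563 inside Itga2b had 0 counts in both.

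**Figure D2:**
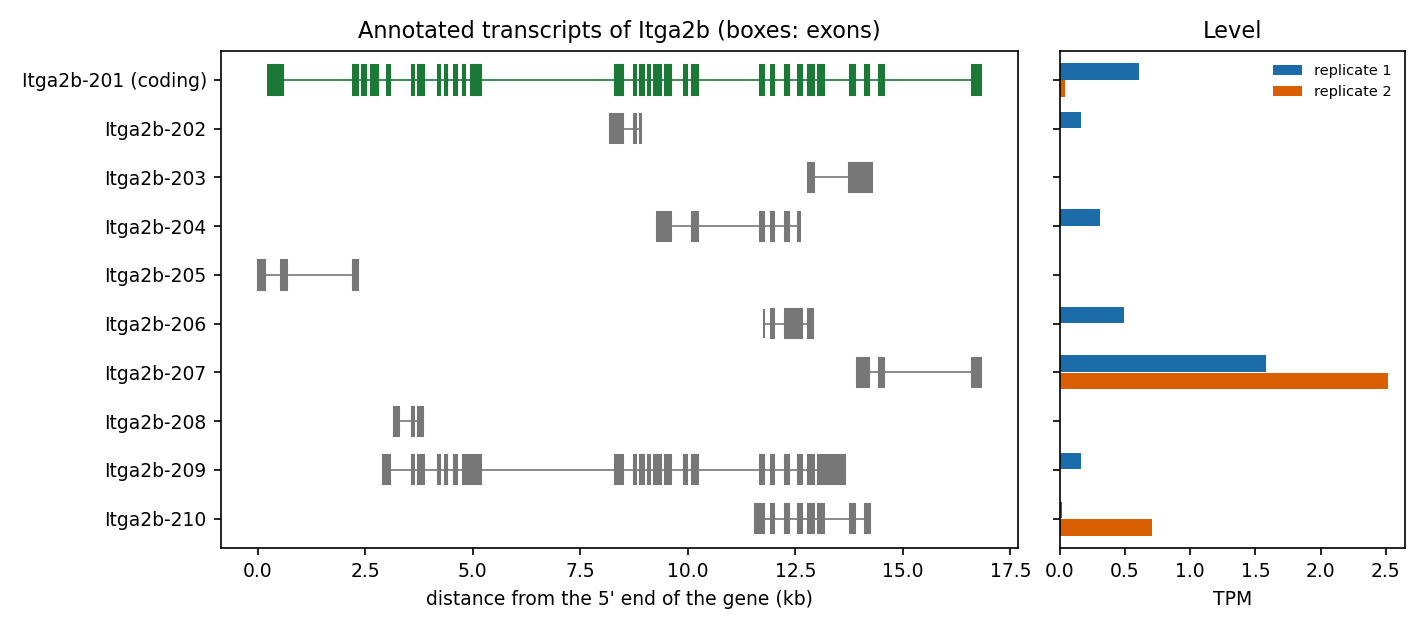
Left, the 10 annotated transcripts of Itga2b drawn to scale by distance in kb from the 5′ end of the gene, with boxes for exons and the coding transcript in green. Right, the TPM of each transcript in replicate 1 (blue) and replicate 2 (orange); the longest bars in both libraries are those of Itga2b-207 at the 3′ end (1.58 and 2.52 TPM), and the coding Itga2b-201 reaches 0.61 and 0.04 TPM.

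Itgb3 (chromosome 11, 104608000 to 104670476, plus strand) encodes the beta subunit of the same integrin, which also pairs with the alpha subunit encoded by Itgav. It had 159 and 40 counts, at 0.42 TPM (the authors' interval 0.360 to 0.502) and 0.84 TPM (0.562 to 1.06), below 1 TPM in both libraries. Its coding transcript, Itgb3-201, took 142.57 of the counts in replicate 1 and 0 in replicate 2, where all 40 were placed on the processed transcript Itgb3-202, which starts 29389 bases further in. By posterior mean the coding transcript held 5.16 of the 40 (posterior SD 5.25), so its absence from replicate 2 rests on the point assignment. Per length, Itga2b was 7.90-fold higher than Itgb3 in replicate 1 (6.40 to 9.62) and 3.89-fold in replicate 2 (2.19 to 6.68). These intervals leave out error in placing counts on transcripts. On coding transcripts alone Itga2b and Itgb3 stood at 0.61 and 0.37 TPM in replicate 1, and at 0.04 and 0 TPM in replicate 2. Without the length correction the libraries went opposite ways. Itga2b stayed higher in replicate 1 (3.56 against 2.26 CPM) and was the lower of the pair in replicate 2 (1.59 against 2.89 CPM). Gm11662, a pseudogene next to Itgb3, had 0 counts in both libraries. Itgav, the other partner of the beta subunit, stood at 13.1 and 73.0 TPM.

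Gp1ba has 2 annotated transcripts, both coding, and the libraries placed its counts on different ones. In replicate 1, 2281.43 counts went to Gp1ba-202 and 498.57 to Gp1ba-201. In replicate 2 all 836 went to Gp1ba-201. The 2 transcripts differ by 22 bases at the start, 8 bases at the end of the first exon and 216 bases at the 3′ end. The authors' posterior means are less one-sided, with 74.1 of the counts of replicate 2 on Gp1ba-202 and a posterior SD of 66.17 counts. Since both are coding, the gene's level is all coding whichever is taken.

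**Figure D3:**
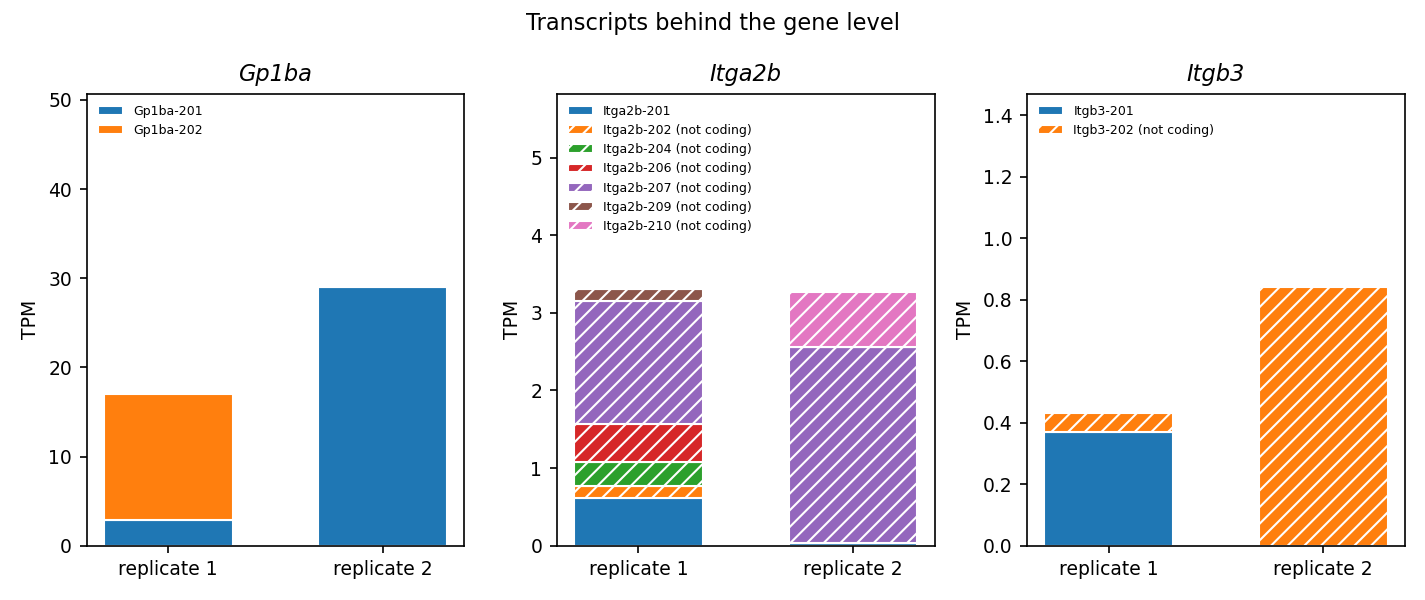
TPM of each annotated transcript, stacked to the gene's level, for Gp1ba, Itga2b and Itgb3 in both replicates; each panel has its own axis from 0, and hatching marks transcripts that are not coding. Gp1ba is wholly coding in both libraries (17.04 and 28.98 TPM). Coding transcripts make 18.4% and 1.22% of the TPM of Itga2b, and none of that of Itgb3 in replicate 2.

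The 10 genes have 33 annotated transcripts in the tables, of which 14 had counts in the first library and 9 in the second. Of the 4 genes with more than 1 transcript and counts in both libraries (Itga2b, Itgb3, Gp1ba and Vwf), 1 had the same leading transcript in both, Itga2b, against 62.3% of 7420 such genes in the whole tables. The mean transcript length was shorter in replicate 2 for 3 of the 4, all but Gp1ba, against 48.7% of those genes. With coding transcripts alone, an alternative chosen after seeing the data, 2 of the 10 genes reached 1 TPM in both libraries, Gp1ba and Gp9, against 29.4% of protein-coding genes counted in this way.

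Vwf (chromosome 6, 125546774 to 125686679, plus strand) encodes von Willebrand factor, the ligand of the GPIb-IX-V receptor, made by megakaryocytes and endothelial cells. It had 2 counts in replicate 1 and 14 in replicate 2, at 0.01 and 0.49 TPM. The authors' intervals leave out both of these values, at 0.0577 to 0.406 TPM and 0.709 to 2.66 TPM, and their posterior means are 0.21 and 1.57 TPM. The level of Vwf is thus uncertain, and by posterior mean its average of 0.89 TPM lies above the 0.615 TPM of Itgb3, against the order given above. Much of the posterior mean in replicate 2 lay on transcripts without counts. Vwf-210, where all 14 counts were placed, held 0.48 TPM of it. Vwf-205, Vwf-209 and Vwf-204 held 0.41, 0.26 and 0.18 TPM with posterior mean counts of 0. The scaled ratio was 46.9 (exact 95% interval 10.8 to 426). In the maximum likelihood assignment none of these counts fell on a coding transcript. The 2 of replicate 1 were placed on the processed transcript Vwf-206, and the 14 of replicate 2 on Vwf-210, which is annotated for nonsense-mediated decay. Ano2, the gene next to Vwf on the same strand, had 0 counts in both libraries. Of 10 endothelial markers, 1 reached 1 TPM in both libraries, Egfl7 (196 and 186 TPM), and 6 had 0 counts in both. The summed level of these markers was 196 and 187 TPM, nearly all from Egfl7. Cdh5, the cadherin of endothelial junctions, had 0 and 3 counts and Kdr, a receptor for vascular growth factor, 0 and 6, both named after their values were seen.

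Pf4 (chromosome 5, 90772435 to 90773383, plus strand) and Ppbp (chromosome 5, 90768518 to 90770063, plus strand) encode the chemokines that fill platelet alpha granules, and the genes are neighbours 2372 bases apart. Both had 0 counts in both libraries. For Pf4 this allows up to 0.1002 TPM in replicate 1 and 0.588 TPM in replicate 2, and for Ppbp up to 0.0469 and 0.282 TPM. Cxcl5, the chemokine gene on the other side of Ppbp, had 0 counts in both as well. Of the 15 CXC chemokine genes 12 were at 0 in both libraries and none reached 1 TPM in both. The 3 highest were Cxcl3 (0 and 0.41 TPM), Cxcl9 (0 and 0.06 TPM) and Cxcl16 (0 and 0.03 TPM).

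Rgs18 (chromosome 1, 144752683 to 144775435, minus strand) encodes a regulator of G-protein signalling abundant in platelets, where it dampens signals from G-protein-coupled receptors. It had 0 counts in both libraries, which allows up to 0.0232 and 0.141 TPM. Of the 21 genes of the RGS family 3 reached 1 TPM in both libraries and 12 had 0 counts in both. The 3 were Rgs11 (106 and 453 TPM, of which coding transcripts gave 14.3 and 3.19), Rgs10 (51.4 and 113 TPM) and Rgs12 (20.9 and 21.4 TPM).

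The libraries were then set side by side to see how far the level of each gene can be trusted. The test compares 2 libraries and not conditions, and it covers counting error only. Among the 8895 genes whose mean CPM reached 1, 47.9% were called different (exact binomial test on TMM-scaled counts, adjusted p under 0.05 and at least 2-fold), 17.6% higher in replicate 2 and 30.4% higher in replicate 1. Among the 10 genes 5 could be tested and 3 were called, all higher in replicate 2, a share that is read against that background. Gp1ba was 2.02-fold higher in replicate 2 (exact 95% interval 1.86 to 2.18, adjusted p = 1.6e-61). Gp5 was 3.26-fold higher (2.11 to 4.95, adjusted p = 1.7e-07) and Gp9 2.41-fold (1.57 to 3.62, adjusted p = 6.8e-05). Itgb3 was 1.69-fold higher in replicate 2 (1.16 to 2.40, adjusted p = 0.0054) and Itga2b stood at 0.588 of its rate in replicate 1 (0.362 to 0.910, adjusted p = 0.018), both short of 2-fold. So the 3 tested genes of the GPIb-IX-V complex were higher in replicate 2, and Itga2b was the 1 of the 5 with the lower value there. With library totals in place of TMM the log2 ratios shift by -0.40 in the median of all genes. Gp1ba (log2 ratio 0.61) and Gp9 (0.86) then miss 2-fold, Itga2b (-1.16) passes it in the other direction, and the calls higher in replicate 2 fall from 36.7% to 20.9% of all calls.

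**Figure D4:**
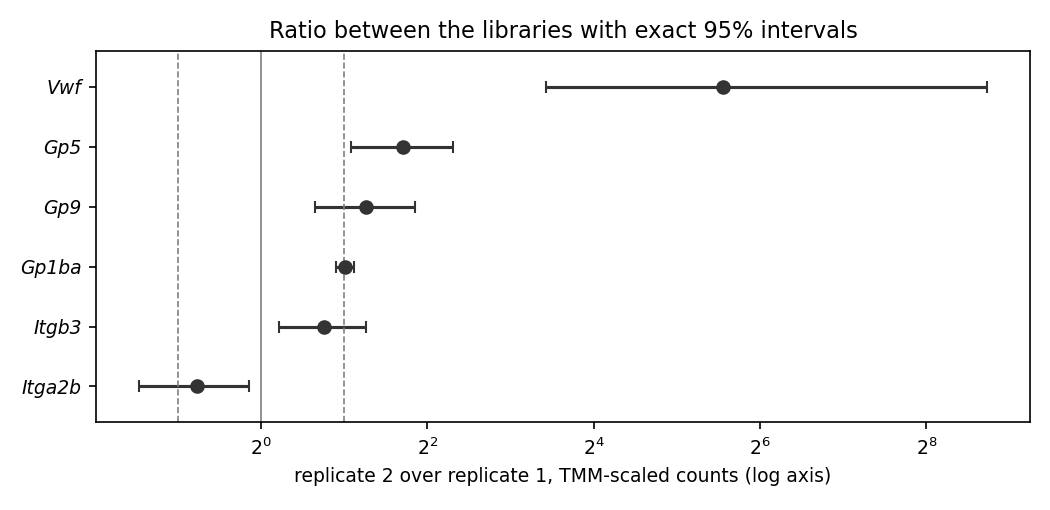
Ratio of replicate 2 to replicate 1 in TMM-scaled counts on a log axis with base 2, for the 6 genes with counts in both libraries; bars are exact 95% intervals for counting error, the solid line marks equality and the dashed lines 2-fold. Gp1ba has the narrowest interval (1.86 to 2.18), Vwf, with 2 and 14 counts, the widest, and Itga2b alone lies left of equality.

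Other genes were taken from lists of platelet and megakaryocyte function and of the RGS, integrin and CXC chemokine families, described here by counts. Of the genes of 7 such lists other than the 10, 48 of 166 reached 1 TPM in both libraries. The share was 17.2% over all mouse gene entries and 33.1% over protein-coding genes. Together the lists did not exceed protein-coding genes, but with the 3 families included the pooled count is not one of platelet genes alone. Above 33.1% were activation and cytoskeleton (14 of 32) and transcription factors (15 of 22). Below it were receptors (3 of 28) and granule genes (8 of 30). For 0 counts in both libraries the shares over all entries and over protein-coding genes were 64.2% and 41.3%. The counts of every list, the earlier ones included, are read against these shares. Counted per list, some of which hold members of the 10, the share ran from 0 of 15 CXC chemokines to 15 of 22 transcription factors. Of 28 platelet receptors and adhesion molecules 3 reached 1 TPM in both and 13 had 0 counts in both. The 3 were Itgb1 (31.8 and 80.0 TPM, of which coding transcripts gave 5.66 and 7.13), Adra2a (9.44 and 27.1 TPM) and P2ry1 (2.70 and 1.98 TPM). They encode an integrin subunit of many cell types, an adrenergic receptor and an ADP receptor. Gp6, the collagen receptor gene, named here after its values were seen, had 0 counts in both.

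Of 32 genes of platelet activation and the platelet cytoskeleton, 14 reached 1 TPM in both libraries and 1 had 0 counts in both. The highest were Fermt3, the kindlin that activates integrins in blood cells (1238 and 1082 TPM), the tubulin gene Tuba4a (303 and 134 TPM) and the formin gene Diaph1 (98.0 and 196 TPM). Tubb1, the tubulin typical of platelets, named after its values were seen, stood at 11.8 and 4.91 TPM. Of 30 genes of granule cargo and granule formation 8 reached 1 TPM in both and 10 had 0 counts in both. The highest were Tgfb1, a growth factor that platelets store (609 and 1232 TPM), and Stxbp2 (372 and 154 TPM) and Vamp8 (193 and 23.1 TPM), which act in granule release in many cells. Of the 26 integrin subunits 7 reached 1 TPM in both, and the highest were Itgb1, Itgav and Itga4 (16.7 and 7.29 TPM).

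Of 22 measured transcription factors of megakaryocytes 15 reached 1 TPM in both libraries and 3 had 0 counts in both. The highest were Zfpm1, which encodes FOG1 (2396 and 5084 TPM), Gata1 (3038 and 2940 TPM, in which reads of the introduced fusion gene can be counted) and Tal1 (408 and 569 TPM). Fli1, the ETS factor that drives many platelet genes and is named here after its values were seen, stood at 13.8 and 5.44 TPM. The median level of the list was 21.4 TPM, against 0.823 TPM for the 10 platelet genes, 423 TPM for the erythroid markers and 0 TPM for all entries. Markers of other blood cells were low: none of 8 monocyte, 9 mast cell, 8 neutrophil and 10 lymphoid markers reached 1 TPM in both libraries. The summed level of those lists was 0.58 and 1.11 TPM for monocytes, 1.72 and 1.45 TPM for mast cells, 0.24 and 0.09 TPM for neutrophils and 0.29 and 0.77 TPM for lymphocytes, below that of Gp1ba alone. In bulk RNA a few cells with much of a transcript and many cells with little cannot be told apart.

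**Figure D5:**
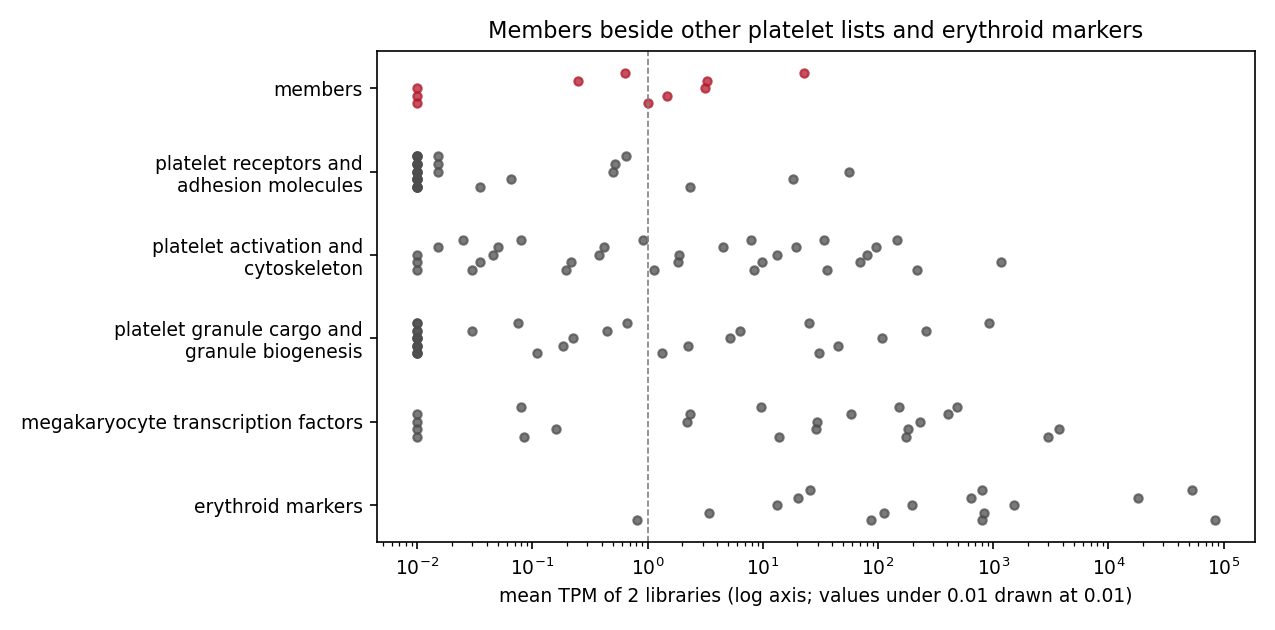
Mean TPM of the 2 libraries on a log axis for each gene of the 10 (red), of 4 lists of platelet and megakaryocyte function, and of the erythroid markers (grey); values under 0.01 are drawn at 0.01 and the dashed line is 1 TPM. The 10 genes reach at most 23.01 TPM, the highest megakaryocyte transcription factor, Zfpm1, lies at 3740 TPM, and 13 of the 28 receptors have no counts and lie at the left edge.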

How the data were processed

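The data are 2 polyadenylated RNA libraries of 1 group, sequenced from both ends. Per the labels, the assembly is mm10. GENCODE M4 is named as the annotation, and transcriptome alignments as the input, in the notes the authors deposited with the files. The aligner, quantification software and strand setting were not given in those notes or the labels. Deposited by the authors were estimated counts that need not be whole, TPM and FPKM, which are corrected for effective length, the percent of each gene's TPM held by a transcript, and interval bounds whose level is not stated. Gene and transcript tables were joined by identifier without version to GENCODE M21 on the same assembly, which named 42462 of 43346 mouse entries and gave transcript classes. All 10 genes matched, and 26 of their 33 transcripts have the same length in M21. A further 26345 entries are not mouse genes, held 3 and 0 counts, and were left out.

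The genes and lists were chosen with earlier results of these data known. A gene was called detected at 1 TPM in both libraries. Estimated counts were rounded, scaled by TMM (edgeR 4.0.16, factors 1.15 and 0.871) and tested per gene, at a mean CPM of at least 1, with a two-sided exact binomial test and Benjamini-Hochberg adjustment over all genes tested. Log2 ratios used a prior count of 0.5; ratios between genes carry exact 95% intervals. The limit of a count of 0 is 3 counts on the shortest annotated transcript. On simulated data, 96 of 96 genes with a true fold of 3, 96 of 96 with a fold of 8 and 0 of 8687 unchanged genes were called, with counting error alone simulated. Named genes are the 10, the 3 highest of each pathway or family list and of the erythroid markers, and neighbours within 10 kb; others are said to be chosen later. Mkl1 and Evi1 matched no entry. Promoter letters are from RefSeq on GRCm38.p6. Alternatives were other minimum levels, units, posterior means, DESeq2 1.42.0 size factors, library totals, filters and folds. Python 3.11.15 and R 4.3.3 were used. A later series that supersedes this one was not used here.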

Additional observations from a re-analysis of the deposited data

How the results depend on the processing

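The count of 3 genes at 1 TPM in both libraries fell to 1 with a minimum of 5 TPM and rose to 5 with a minimum of 10 counts and to 6 with at least 1 count. It was 3 to 5 with either library left out (5 without replicate 1, where Gp1bb and Gp5 are added). Of the 166 related genes 73 had at least 1 count in both, against 48 at 1 TPM. The 3 genes called between the libraries became 1 with a mean CPM of at least 10, 5 with no filter (Gp1bb and Vwf are added) and 5 with a fold of 1.5. Without a filter 15466 genes were tested and 49.6% of the 6194 calls were higher in replicate 2, against 36.7% of 4265; with a mean CPM of at least 10 it was 44.5% of 2535. The number of genes with the same leading transcript in both libraries was 2 by posterior mean TPM and 2 by posterior mean percent, against 1. Gp1bb joins Itga2b in both, but both its transcripts have posterior mean counts of 0 in replicate 1. Its leading transcript in replicate 1 thus rests on no reads, and the match says nothing of shared use. The mean log2 ratio of Itga2b to Itgb3 was -0.10 in CPM, where replicate 2 turned and replicate 1 did not. The mean level of Vwf was 0.89 TPM by posterior mean, against 0.25. Of the other single values and list counts, 187 kept their direction and call or moved by less than 1 SD, 32 moved further, 3 passed a threshold and 2 lost one. The lower depth of replicate 2 limits what 0 counts can show there. Leaving out a library leaves 1, so replicate differences and shared leading transcripts had no such value. No paired analysis was possible because the libraries are 1 group.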
